A study of Mus musculus with 8 samples.

Results

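Regulators of G protein signaling (RGS) were examined in RNA sequencing data of the mouse brain cortex after a high fat diet. The 10 genes were taken by name, Rgs2, Rgs4, Rgs7, Rgs8, Rgs10, Rgs12, Rgs14, Rgs16, Rgs17 and Rgs20, from the 13996 genes with an expression value, and all 10 had a row. The normal group (n = 4) and the high fat diet (HFD) group (n = 4) were male mice of the strain C57BL/6, aged 16 weeks at collection of the cortex. For the last 8 weeks the HFD group had been given a diet with 60% of its weight as fat, and the normal group had stayed on conventional food. Each library was made from rRNA-depleted total RNA of the cortex of 1 mouse. Expression is given as FPKM (fragment counts scaled to the length of the transcript and the size of the library), which corrects for transcript length, so that levels of different genes can be compared. Values were rounded to 0.1 by the authors. Errors are SD over the 4 mice of a diet for FPKM and standard errors (SE) for log2 ratios.

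RGS proteins end the signal of G protein-coupled receptors. A receptor loads the alpha subunit of its G protein with GTP, and the RGS domain speeds up the hydrolysis of that GTP, which returns the G protein to its resting state. In neurons these proteins set how long receptors for dopamine, glutamate, acetylcholine, opioids and other transmitters act on adenylyl cyclases, phospholipase C and potassium channels. Among the 10 genes, Rgs2, Rgs4, Rgs8 and Rgs16 encode small proteins of the R4 subfamily that consist of little more than the RGS domain. Rgs7 belongs to the R7 subfamily, whose members pair with the atypical beta subunit Gnb5. Rgs10, Rgs12 and Rgs14 form the R12 subfamily, and Rgs17 and Rgs20 belong to the RZ subfamily, which acts on Gnaz and other inhibitory alpha subunits.

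Markers of neighboring brain regions differed between the libraries, and their values are given here and beside the RGS genes that moved with them. Summed FPKM of 8 cerebellum markers was 24.3, 264.5, 359.7 and 80.7 in normal mice 1 to 4 and between 17.9 and 21.3 in HFD mice. Normal mice 2 and 3 therefore stood apart from the others, and results of the RGS genes that move with them are also given without them. Normal mice 1 and 4, at 24.3 and 80.7, were still above the HFD mice, so fits without mice 2 and 3 are not free of this difference. Summed FPKM of 9 striatum markers ranged from 253.9 to 456.7 in the normal group and from 91.0 to 107.1 in the high fat group, and 9 of 9 were lower in the high fat group (limma). Of 9 markers of cortical projection neurons, 7 were higher in the high fat group and 2 did not pass, with summed FPKM of 292.1 to 442.0 against 487.2 to 577.3. All 9 projection neuron markers were detected in each mouse, but so were all 9 striatum markers, so detection alone does not tell these regions apart. Over all genes tested, 15.3% were lower and 17.7% higher at an adjusted p below 0.05 (limma), the background for such counts here and below. In bulk tissue, fewer cells of a type cannot be told apart from less RNA per cell.

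Levels of the 10 genes covered a wide range. Rgs4 was the highest in both diets, at 192 ± 44.4 FPKM (SD, n = 4) in the normal group and 123 ± 12.7 (SD, n = 4) in the high fat group, and its lowest mouse lay above the highest mouse of each other member. In the normal group Rgs8 and Rgs7 followed, with overlapping values, and then Rgs10. Rgs2, Rgs14 and Rgs17 lay together around 18 to 19 FPKM on average and overlapped. Rgs12, Rgs20 and Rgs16 were the lowest, and the ranges of Rgs20 and Rgs16 overlapped in the normal group. In the high fat group the order changed for Rgs8, which moved from the second place to the sixth with 18.4 ± 1.94 FPKM and overlapped with Rgs2 and Rgs14. Rgs17 moved from the seventh place to the fourth and lay above Rgs2 in all 4 HFD mice without overlap. The coefficient of variation between mice was smaller in the high fat group for 9 of 10 genes, all but Rgs20, a difference that was not tested. It was 51.1% in the normal group and 10.6% in the high fat group for Rgs8, and 45.2% and 6.60% for Rgs16.

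**Figure D1:**
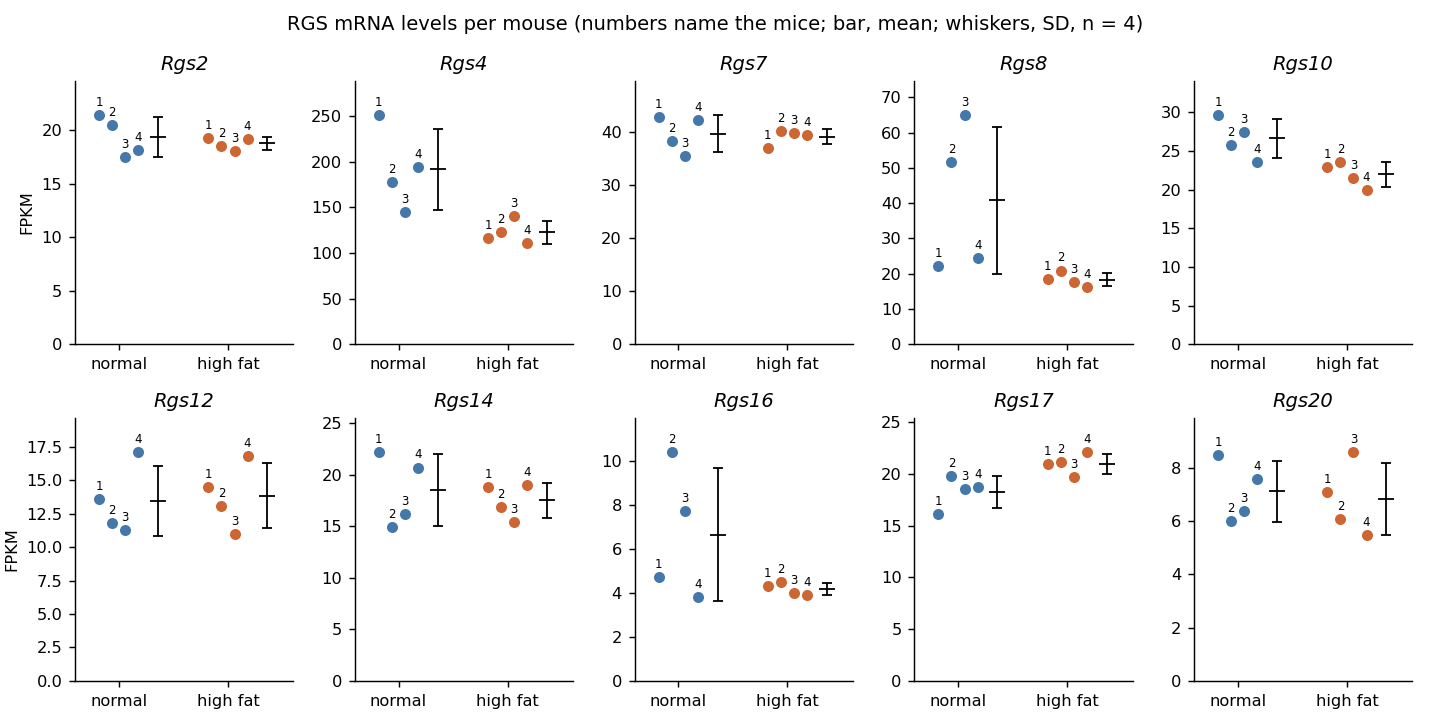
FPKM of the 10 RGS genes in each of 4 normal mice (blue) and 4 HFD mice (orange), each panel with its own axis from 0; numbers name the mice, bars are means and whiskers SD. Rgs4 and Rgs8 are lower in each HFD mouse than in each normal mouse, and Rgs8 and Rgs16 are spread by normal mice 2 and 3.

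The log2 ratio of HFD over normal mice was estimated by limma on log2(FPKM + 0.1) and tested two-sided, and p-values were adjusted over 13982 genes by the method of Benjamini and Hochberg. Of the 10 genes, 3 were lower in the high fat group at an adjusted p below 0.05 (Rgs4, Rgs8 and Rgs10), 1 was higher (Rgs17) and 6 did not pass. Over all genes tested 33.1% passed, 15.3% as lower and 17.7% as higher, so 4 of 10 is near the background. With a change of more than 50% also required (a fold over 1.5 either way), Rgs4 and Rgs8 remained. Over all genes 7.13% did so in either direction, 2.90% as lower and 4.23% as higher. A lower gene can reach this fold, here and below, with a loss of less than 50%, as Rgs4 did with 36.1%. Without normal mice 2 and 3, a choice made after seeing the data, 3 of the 10 genes passed (Rgs4, Rgs8 and Rgs17), and Rgs4 alone had a change of more than 50%. In that fit 2736 of 13904 genes passed, fewer than with all mice. The 4 and 4 values did not overlap for Rgs4 and Rgs8 among the members and for 31.9% of all genes. The median log2 ratio was -0.07 over the 10 genes and 0.00 over all genes tested. Summed FPKM of the 10 genes was 383 ± 35.0 (SD, n = 4) in the normal group and 284 ± 9.92 (SD, n = 4) in the high fat group. Without Rgs4 and Rgs8 the sums were 150 ± 7.69 and 143 ± 3.50, so these genes held most of the difference in the sum.

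**Figure D2:**
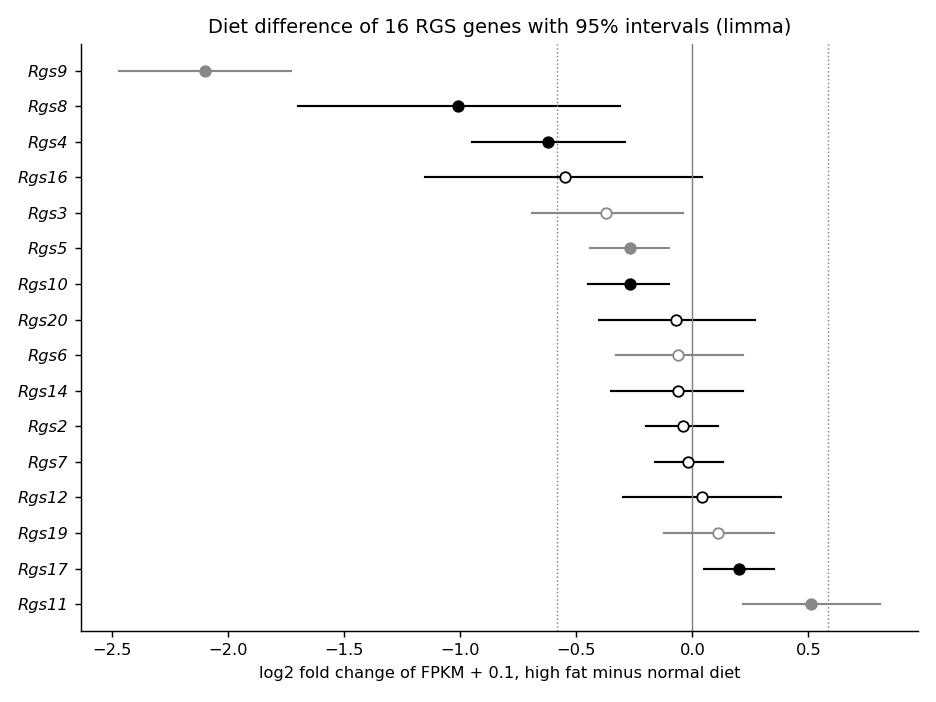
Log2 ratio of FPKM + 0.1, high fat minus normal diet, with 95% intervals from limma. The 10 RGS genes are black and 6 other RGS genes of the table grey. Filled points passed an adjusted p of 0.05, and dotted lines mark a fold of 1.5 either way. Rgs9, Rgs8 and Rgs4 lie beyond the dotted line on the lower side, and no gene lies beyond the upper one.

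Rgs4 (ENSMUSG00000038530.11, chromosome 1 of GRCm38, 169741477 to 169747642, minus strand) is a regulator of inhibitory and Gq-type alpha subunits and the member with the most mRNA in this cortex. It was measured at 250.8, 178.1, 144.6 and 194.2 FPKM in normal mice and at 116.5, 123.2, 140.2 and 110.8 FPKM in HFD mice. All 4 normal mice were above all 4 HFD mice, although normal mouse 3 exceeded HFD mouse 3 by little. The log2 ratio was -0.62 ± 0.15 (SE, limma adjusted p 0.0113), and mean FPKM fell by 36.1%. Without normal mice 2 and 3 the log2 ratio was -0.85 ± 0.12 (SE, limma adjusted p 0.00555). With the cerebellum markers as a covariate, entered as their mean log2(FPKM + 0.1), it was -1.21 ± 0.13 (SE, limma adjusted p 0.00845). Sums of these markers do not overlap between the diets (24.3 to 359.7 in normal mice, 17.9 to 21.3 in HFD mice). Their part and that of diet are therefore not fully separated in that fit. Within the normal group the mice with the most cerebellum marker RNA, 2 and 3, had the lowest Rgs4. Leaving out any 1 mouse kept the adjusted p below 0.05 (0.00446 to 0.0329 in limma). The log2 ratio was then -0.48 without normal mouse 1 and -0.58 without HFD mouse 4, short of a fold of 1.5.

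Between the diets Rgs4 was lower while markers of cortical projection neurons, cells known to express it widely, were higher. Within the diets it varied with these markers, with Pearson's r of 0.84 over the 8 mice after subtraction of diet means. The ratio of Rgs4 to Slc17a7, the vesicular glutamate transporter of these neurons, was 0.864, 0.814, 0.690 and 0.615 in normal mice 1 to 4 and 0.326 to 0.348 in HFD mice, a description for which Slc17a7 was chosen after the values were seen. Striatum markers were lower in the same mice as Rgs4. Their summed FPKM was 456.7, 377, 355.9 and 253.9 in normal mice 1 to 4, the same order as that of the ratio to Slc17a7. The parts of striatal and cerebellar RNA in this ratio were not tested. With the striatum markers as a covariate the log2 ratio of Rgs4 was 0.15 ± 0.72 (SE). In that fit 0 of 13982 genes passed the adjusted threshold of limma and 296 an unadjusted p of 0.05, and since the sums of the striatum markers do not overlap between the diets, their parts cannot be told apart. Among immediate early genes, which follow neuronal activity, 5 of 11 were lower in the high fat group and 6 did not pass, with summed FPKM of 223.3 to 344.6 against 165.7 to 253.8. Their part in the result for Rgs4 was not tested.

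Promoters are shown for Rgs4, the most abundant member, and for Rgs8 and Rgs16, which lie next to each other on chromosome 1 and varied together. Sequences are the 250 bases before the transcription start from RefSeq (GRCm38.p6), 5' to 3' on the strand of the gene. Capitals mark matches on either strand to the motifs TATAAA (the TATA box), CCAAT (the CCAAT box), GGGCGG (the GC box), CACGTG (an E-box), TGACGTCA (the cyclic AMP response element) and TGACG, which is a part of that element.
Rgs4 (chr1:169747643-169747892, minus strand): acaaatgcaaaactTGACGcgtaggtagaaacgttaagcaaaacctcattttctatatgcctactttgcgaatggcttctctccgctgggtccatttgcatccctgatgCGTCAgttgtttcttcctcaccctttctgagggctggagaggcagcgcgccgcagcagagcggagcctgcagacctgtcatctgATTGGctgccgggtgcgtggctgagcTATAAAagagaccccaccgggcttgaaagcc
Rgs8 (chr1:153652787-153653036, plus strand): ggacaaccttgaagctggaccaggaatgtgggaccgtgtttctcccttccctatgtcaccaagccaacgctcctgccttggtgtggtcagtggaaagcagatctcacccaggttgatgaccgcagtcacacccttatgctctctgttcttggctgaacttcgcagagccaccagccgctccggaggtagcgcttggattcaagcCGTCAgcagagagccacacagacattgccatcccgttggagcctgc
Rgs16 (chr1:153740103-153740352, plus strand): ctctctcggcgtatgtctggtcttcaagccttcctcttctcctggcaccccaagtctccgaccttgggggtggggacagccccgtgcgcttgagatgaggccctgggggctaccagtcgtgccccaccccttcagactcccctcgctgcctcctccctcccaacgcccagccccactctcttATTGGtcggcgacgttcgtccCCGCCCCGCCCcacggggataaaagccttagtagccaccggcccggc
The Rgs4 window held TATAAA from 31 bases before the start, which is found in 12.4% of 32851 windows of this length, and CCAAT on the opposite strand from 57 bases before it, a motif in 33.8%. It also held TGACG at 2 places, found in 17.8% of windows, and no TGACGTCA, the full element bound by CREB-type factors, found in 1.55%. The window at the first of 3 Rgs8 starts held TGACG only. The Rgs16 window held CCAAT and 2 overlapping GGGCGG, the latter found in 32.7% of windows. CACGTG, the element of clock factors found in 6.02%, was in none of the 3 windows shown and, among the 8 members with a RefSeq window, was in that of Rgs7. These matches are a description of the letters.

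Rgs8 (ENSMUSG00000042671.12, chromosome 1, 153653025 to 153700323, plus strand), known for its expression in cerebellar Purkinje cells, had the largest log2 decrease among the members and the widest spread relative to its mean in the normal group. Its FPKM was 22.3, 51.7, 64.9 and 24.5 in normal mice and 18.6, 20.9, 17.6 and 16.3 in HFD mice. Normal mice 2 and 3 were more than 2-fold above normal mice 1 and 4, and the lowest normal mouse was still above the highest HFD mouse. The log2 ratio was -1.01 ± 0.31 (SE, limma adjusted p 0.0336), and mean FPKM fell by 55.1%. Without normal mice 2 and 3 it was -0.35 ± 0.10 (SE, limma adjusted p 0.0386), a change of less than 50%. The call was lost without normal mouse 2 or 3 and without each of the 4 HFD mice in turn (limma adjusted p 0.0592 to 0.0884), and the log2 ratio with 1 mouse left out lay between -1.25 and -0.73. The order of the normal mice by Rgs8 was 3, 2, 4 and 1, the same as by summed FPKM of the cerebellum markers. With those markers as a covariate the log2 ratio was 0.28 ± 0.25 (SE, limma adjusted p 0.538), the opposite sign. Because the sums of those markers do not overlap between the diets, the parts of diet and markers are not fully separated in this fit.

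Rgs16 (ENSMUSG00000026475.7, chromosome 1, 153740349 to 153745468, plus strand) starts 40025 bp after the end of Rgs8 on the same strand. It encodes an R4 regulator known from the thalamus and from the circadian clock of the suprachiasmatic nucleus. Its FPKM was 4.7, 10.4, 7.7 and 3.8 in normal mice and 4.3, 4.5, 4.0 and 3.9 in HFD mice. Normal mice 2 and 3 were again the high ones, while normal mice 1 and 4 lay among or next to the HFD mice. The log2 ratio of -0.55 ± 0.27 (SE, 95% interval -1.15 to 0.04, limma adjusted p 0.138) did not pass, and without normal mice 2 and 3 it was -0.02 ± 0.11 (SE). Without normal mouse 4 alone it was -0.78 and passed (limma adjusted p 0.0271). Summed FPKM of 7 thalamus markers was 46.4, 107.9, 90.8 and 33.3 in normal mice 1 to 4 and 30.3 to 33.2 in HFD mice, and 2 of the 7 were lower in the high fat group. Of 9 clock genes of the PER phase 8 were higher in the high fat group, with summed FPKM of 168.6 to 195.9 against 263.5 to 281.4, and their part in the values of Rgs16 was not tested. Rgs16 had its highest value in the mouse with the most thalamus marker RNA, and Rgs8 in the mouse with the most cerebellum marker RNA. After subtraction of diet means, Pearson's r over the 8 mice was 0.87 between Rgs8 and Rgs16, 0.98 between Rgs16 and the thalamus markers, 0.90 between Rgs8 and the cerebellum markers and -0.89 between Rgs4 and the cerebellum markers. Values of similar size were found with other lists for Rgs8, at 0.91 with astrocyte, -0.94 with microglia and -0.89 with projection neuron markers. They were also found for Rgs4, at 0.86 with microglia and -0.79 with astrocyte markers, so that no single list is set apart for these genes. For Rgs16 the thalamus list had the highest value, followed by 0.87 with astrocyte and -0.82 with projection neuron markers. The difference between these lists was not tested. The points share the same 8 libraries, among them normal mice 2 and 3, so these values are a description.

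**Figure D3:**
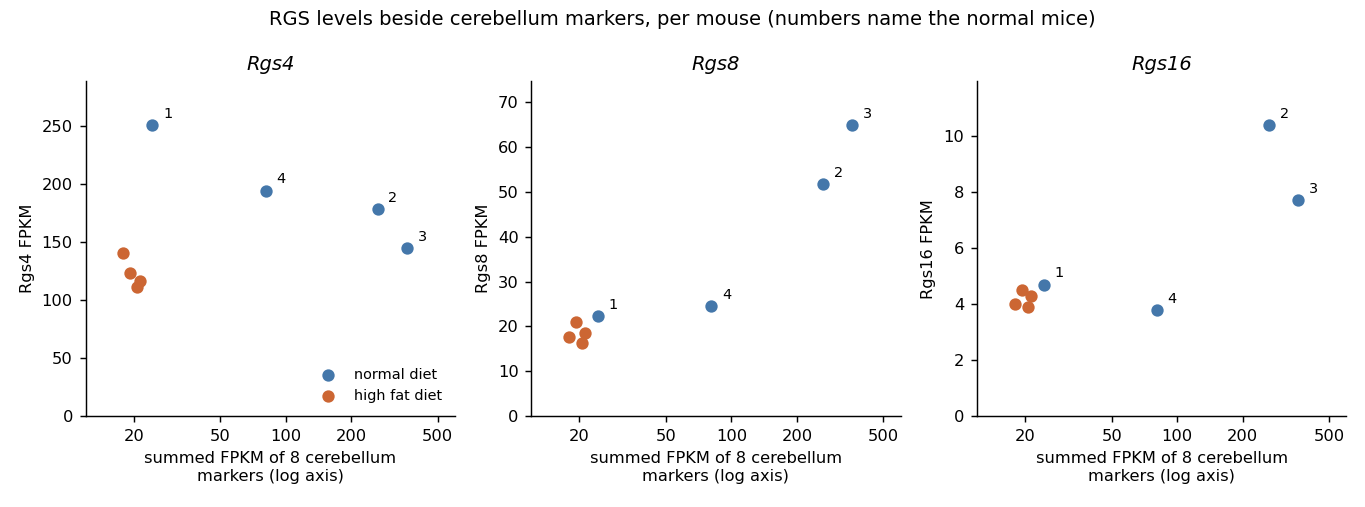
FPKM of Rgs4, Rgs8 and Rgs16 in each mouse against the summed FPKM of 8 cerebellum markers on a log axis, with normal mice in blue, numbered, and HFD mice in orange. Rgs8 and Rgs16 are high in normal mice 2 and 3, whose marker sums are 264.5 and 359.7, while Rgs4 is highest in normal mouse 1, whose sum is 24.3.

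Rgs2 (ENSMUSG00000026360.9, chromosome 1, 143999338 to 144004161, minus strand), the R4 member that prefers Gq-type alpha subunits, did not pass. Its FPKM was 21.4, 20.5, 17.5 and 18.2 in normal mice and 19.3, 18.5, 18.1 and 19.2 in HFD mice. The HFD mice all lay inside the normal range, and the log2 ratio was -0.04 ± 0.07 (SE, 95% interval -0.20 to 0.11, limma adjusted p 0.657).

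Rgs7 (ENSMUSG00000026527.13, chromosome 1, 175059087 to 175492500, minus strand) is a neuronal regulator of Gnao1-type alpha subunits that needs Gnb5 to be stable. Its FPKM was 42.8, 38.3, 35.5 and 42.3 in normal mice and 37.1, 40.2, 39.8 and 39.5 in HFD mice, with full overlap. The log2 ratio was -0.02 ± 0.06 (SE, 95% interval -0.16 to 0.13, limma adjusted p 0.854), and -0.12 without normal mice 2 and 3 (limma adjusted p 0.127). Of its partners, Gnb5 was 66.7 ± 4.03 (SD, n = 4) in the normal group and 60.8 ± 5.06 (SD, n = 4) in the high fat group. The anchors Rgs7bp and Gpr158 had log2 ratios of -0.09 and -0.06. None of these 3 partners passed the adjusted threshold in limma, and none had an unadjusted p below 0.05.

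In the R12 subfamily only Rgs10 passed. Rgs10 (ENSMUSG00000030844.11, chromosome 7, 128373621 to 128418758, minus strand), a small regulator of inhibitory alpha subunits known from microglia as well as neurons, was 29.6, 25.8, 27.5 and 23.6 FPKM in normal mice and 22.9, 23.6, 21.5 and 19.9 in HFD mice. Normal mouse 4 and HFD mouse 2 had the same value, and the other normal mice were above the high fat group. The log2 ratio was -0.27 ± 0.08 (SE, limma adjusted p 0.0251), and mean FPKM fell by 17.5%. Of 9 microglia markers 0 passed the adjusted threshold of limma (1, Tmem119, at an unadjusted p of 0.05), and their summed FPKM was 173.6 to 212.3 in the normal group and 184.5 to 196.3 in the high fat group. The call was lost without normal mouse 1 or 3 or without HFD mouse 3 or 4 (limma adjusted p 0.0527 to 0.0618), and without normal mice 2 and 3, at the same log2 ratio of -0.27 (limma adjusted p 0.10).

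Rgs12 and Rgs14 are large proteins with a second domain that binds inhibitory alpha subunits in their GDP form, and neither passed. Rgs12 (ENSMUSG00000029101.15, chromosome 5, 34949445 to 35039644, plus strand) was 13.6, 11.8, 11.3 and 17.1 FPKM in normal mice and 14.5, 13.1, 11 and 16.8 in HFD mice, and mouse 4 was the highest in each diet. Its log2 ratio was 0.04 ± 0.15 (SE, 95% interval -0.30 to 0.38, limma adjusted p 0.842). Rgs14 (ENSMUSG00000052087.14, chromosome 13, 55369732 to 55384687, plus strand), known for its enrichment in area CA2 of the hippocampus, was 22.2, 14.9, 16.2 and 20.7 FPKM in normal mice and 18.8, 16.9, 15.4 and 19.0 in HFD mice. All HFD mice lay within the normal range, with a log2 ratio of -0.06 ± 0.13 (SE, 95% interval -0.35 to 0.22, limma adjusted p 0.728). Without normal mice 2 and 3 the log2 ratio of Rgs14 was -0.29 ± 0.09 (SE, limma adjusted p 0.0565). Markers of the hippocampus were lower in the high fat group for 4 of 5 genes. Their summed FPKM was 20.5 to 27.4 in the normal group and 12.5 to 17.6 in the high fat group. After subtraction of diet means, Pearson's r between Rgs14 and these markers over the 8 mice was -0.15.

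In the RZ subfamily Rgs17 was higher and Rgs20 did not pass. Rgs17 (ENSMUSG00000019775.17, chromosome 10, 5825663 to 5922400, minus strand), a regulator of Gnaz and other inhibitory alpha subunits, was 16.1, 19.8, 18.5 and 18.7 FPKM in normal mice and 20.9, 21.1, 19.7 and 22.1 in HFD mice. HFD mouse 3 lay just below normal mouse 2, and the other HFD mice were above the normal group. The log2 ratio was 0.20 ± 0.07 (SE, limma adjusted p 0.0482), an increase of 14.6% in mean FPKM. The call was at the edge of the threshold, since leaving out normal mouse 1, 3 or 4 ended it, as did leaving out HFD mouse 1, 2 or 4 (limma adjusted p 0.0618 to 0.112) and 2 other scalings of the libraries (0.0528 and 0.0545). It was also lost without a variance trend (limma adjusted p 0.0697), without moderation of the variance (0.0891) and with the cerebellum markers as a covariate, where the log2 ratio was 0.40 ± 0.09 (SE, limma adjusted p 0.0543). Without normal mice 2 and 3 it was 0.27 ± 0.07 (SE, limma adjusted p 0.0407).

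Rgs20 (ENSMUSG00000002459.17, chromosome 1, 4909576 to 5070285, minus strand) was 8.5, 6.0, 6.4 and 7.6 FPKM in normal mice and 7.1, 6.1, 8.6 and 5.5 in HFD mice. Both diets covered nearly the same range, and the log2 ratio was -0.07 ± 0.15 (SE, 95% interval -0.40 to 0.27, limma adjusted p 0.752). Rgs20 overlaps Atp6v1h on the other strand by 268 bp, and reads there may belong to either gene, because the sources used here do not say whether strand was used in the counting. Genes without a row also overlap members on the other strand, among them Gm16041 with Rgs20 (5964 bp) and Gm29529 with Rgs8 (2266 bp). Others are Gm28513 with Rgs16 (1917 bp) and Gm43791 with Rgs12 (1576 bp). Gm15503 overlaps Rgs10 by 3374 bp on the same strand. Reads there may be shared as well. Of the 10 genes, 6 lie on chromosome 1.

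For comparison, 6 of 11 other RGS genes had a row, and 3 of them passed the adjusted threshold. Rgs9, an R7 regulator known from striatal neurons, was 30.7, 23.4, 22.2 and 16.1 FPKM in normal mice and between 4.7 and 5.8 in HFD mice, a log2 ratio of -2.10 ± 0.17 (SE, limma adjusted p 0.00014). The order of the normal mice by Rgs9 was the same as by summed FPKM of the striatum markers, from mouse 1 to mouse 4. Rgs5, known from pericytes, was the highest by mean FPKM among the 6 and lies 45663 bp from Rgs4 on the other strand. It was 29.8 ± 3.43 in the normal group and 24.5 ± 0.991 in the high fat group, with a log2 ratio of -0.27 (limma adjusted p 0.0243). Rgs11, an R7 member that overlaps Arhgdig on the other strand by 4836 bp, had a log2 ratio of 0.51 (limma adjusted p 0.0158). The call of Rgs11 was lost without normal mice 2 and 3, where Rgs5 and Rgs9 still passed. Rgs3, Rgs6 and Rgs19 did not pass, with log2 ratios of -0.37, -0.06 and 0.11. Among all 16 RGS genes of the table, 5 were lower and 2 higher, and the 3 with a change of more than 50% were all lower, against 15.3% lower and 17.7% higher over all genes, and 2.90% and 4.23% with a change of more than 50%.

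The other parts of heterotrimeric G protein signaling moved in both directions. Of 50 genes for RGS partners, G protein subunits, effectors, receptor kinases, arrestins and Gpsm proteins, 11 were lower, 14 higher and 25 did not pass, so that 50% passed against 33.1% of all genes, with a median log2 ratio of 0.00. A change of more than 50% was reached by 5, all lower in the high fat group. These were Gng7 (log2 ratio -0.98), the gamma subunit of striatal receptor signaling, Plcb4 (-0.97), the phospholipase C of Purkinje and thalamic neurons, Gnb4 (-0.76), Gng11 (-0.74) and Adcy5 (-0.68), the main adenylyl cyclase of the striatum. Plcb4 was 24.0, 39.9, 39.5 and 24.2 FPKM in the normal mice and 14.2 to 19.2 in HFD mice, and normal mice 2 and 3 were the high ones as for Rgs8. With those mice left out, 20 of the 50 genes passed, 17 of them among those called with all mice. In that fit 2736 of 13904 genes passed over the whole set.

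Among alpha subunits of all types, 4 of 12 were lower, 3 higher and 5 did not pass, beside 15.3% lower and 17.7% higher over all genes. Gnas, the stimulatory subunit and the highest of the list, was 557 ± 13.5 in the normal group and 558 ± 17.3 in the high fat group. Gnao1, the main inhibitory-type subunit of neurons, was 100.4 ± 4.85 in the normal group and 125 ± 7.12 in the high fat group (log2 ratio 0.32, limma adjusted p 0.00321), and Gnaz and Gna11 were higher by 0.22 and 0.33 on the log2 scale. Gnai1, Gnai3, Gna12 and Gnal, the stimulatory subunit of striatal neurons, were lower, with log2 ratios of -0.13, -0.25, -0.23 and -0.58. Thus alpha subunits of the inhibitory type, on which RGS proteins act, moved in both directions.

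Of 12 beta and gamma subunits 4 were lower and 1, Gng3, was higher, beside 15.3% lower and 17.7% higher over all genes. Gnb1, the highest of them, was 153 ± 6.35 in the normal group and 171 ± 9.96 in the high fat group and did not pass (limma adjusted p 0.0524). Of 14 effectors 7 were higher, beside 17.7% of all genes, and 2 were lower, Adcy5 and Plcb4, beside 15.3%. The higher effectors included Adcy1, the highest of the list (121 ± 1.40 against 153 ± 12.7, log2 ratio 0.33), Adcy3, Adcy6, Adcy8 and Adcy9, and the potassium channel subunits Kcnj6 (0.49) and Kcnj9 (0.43) that beta and gamma subunits open. Of 9 receptor kinases, arrestins and Gpsm proteins 3 were higher, Adrbk1 (0.20), Adrbk2 (0.57) and Grk6 (0.18), and Grk5 was lower (-0.32). Adrbk1, also named Grk2, was the highest of these, at 58.1 ± 2.99 against 66.7 ± 4.78.

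**Figure D4:**
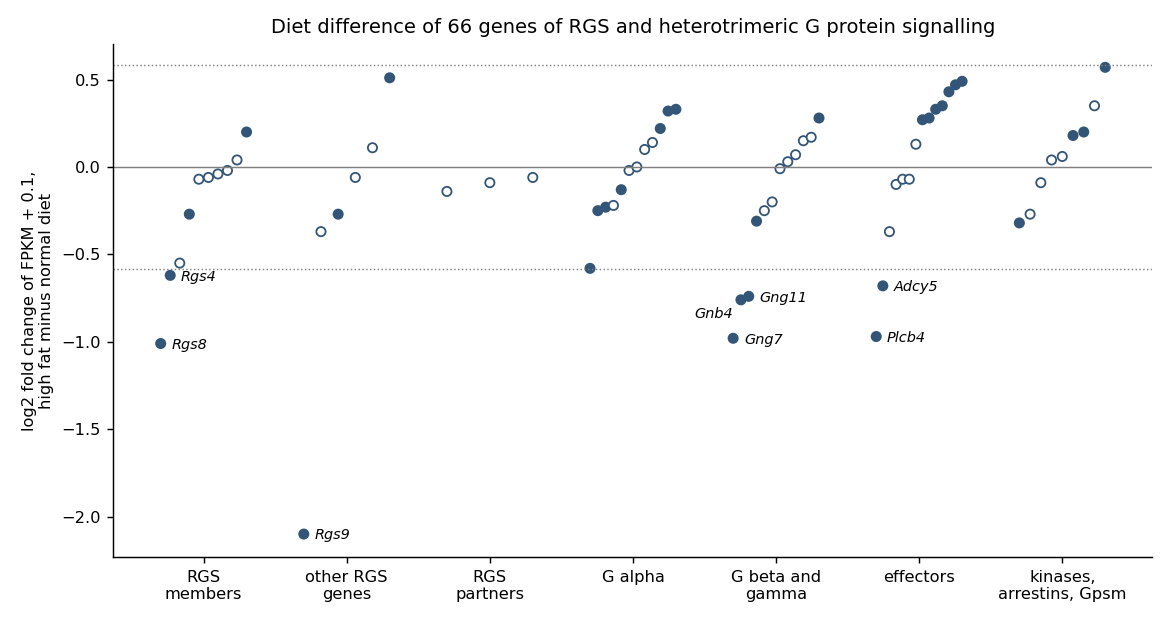
Log2 ratio of FPKM + 0.1, high fat minus normal diet, for 66 genes in 7 lists. Filled points have an adjusted p below 0.05 (limma), and dotted lines lie at a fold of 1.5 either way. The genes beyond the dotted line are all lower in the high fat group and are named.

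By a rule based on deviations from the diet means, the genes most like Rgs4 over the 8 mice among 9637 genes with a mean of at least 5 FPKM were Osbpl1a, Sh3rf3 and Ppp3ca, the catalytic subunit of calcineurin, with Pearson's r of 0.987 to 0.997. The genes most like Rgs8 were Appl2, Prpf38b and Jarid2, with r of 0.994 to 0.995. They are named as a description, since the points are the same 8 libraries.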

How the data were processed

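Cortex RNA of 8 mice was depleted of rRNA and sequenced from stranded paired-end libraries. As deposited, expression is in FPKM: the authors used Trimmomatic for trimming, STAR for alignment (mm10) and Cuffnorm with the GENCODE M17 annotation for quantitation. Tool versions were not stated. FPKM were rounded to 0.1 and the depth per mouse is unknown, so no counting interval is given. Sums of FPKM per mouse were between 562431 and 639142.

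Genes averaging 1 FPKM or more and without a 0 in any mouse (13982 of 13996) were tested together with limma 3.58.1 (R 4.3.3, variance trend) on log2(FPKM + 0.1), a scale that understates changes of low genes. All 10 RGS genes passed that filter. Because FPKM are not counts, this moderated log-scale test was used in place of the per-gene test of the study. Intervals are 95%. The p-values set the diet difference against the spread between these mice. The labels do not give cage or litter, so effects of these cannot be told apart from diet. Tables were made with Python 3.11.15 and pandas 2.3.3. Positions are from GENCODE M21 on the same build, GRCm38, whose gene models may differ from M17. The fit was also run on simulated data with independent noise for each gene. Such data hold no shifts shared by many genes, so they cannot show how the calls behave under them.

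All 10 RGS genes are named. Of other G protein genes, those past both thresholds and the highest of each list were named, with further members as examples chosen after their values were seen. The members, lists and tests were chosen with earlier results of these data known. Alternatives were another added constant, other filters, rescaling, other variance models, the replicate number as a block, marker covariates and mice left out. As a covariate and in correlations, a marker list entered as the mean of log2(FPKM + 0.1) over its genes, not as summed FPKM.

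Replicate numbers only name the mice. Correlations of deviations from diet means were -0.11 to -0.03 for same-numbered mice and -0.06 to 0.09 for others. Marker lists whose diet differences are not given above follow, as lower and higher genes of those tested. They were 5 and 2 of 9 for interneurons, 3 and 1 of 8 for astrocytes and 8 and 0 of 8 for oligodendrocytes. For oligodendrocyte precursors they were 2 and 2 of 5, and for vascular cells 1 and 0 of 9. For choroid plexus they were 3 and 0 of 5, and for the BMAL1 phase of the clock 3 and 1 of 5. Of the cerebellum list 5 of 7 tested genes were lower, and Gabra6 was listed at 0 in 1 mouse.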

Additional observations from a re-analysis of the deposited data

How the results depend on the processing

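Over 20 alternatives for each of the 10 RGS genes, 149 of 200 log2 ratios kept direction and side of the threshold, 29 lost the call, 1 gained it and 21 changed sign. Of the 10 genes, 4 were called with all mice, and 2 of them with a change over 50% (a fold over 1.5). With the cerebellum markers as a covariate these counts were 1 and 1 (Rgs4), other RGS genes 1 (from 3) and G protein genes 7 (from 25), while calls over all genes were 444 (from 4626), with log2 ratios of 0.28 for Rgs8, 0.32 for Rgs16 and -0.21 for Rgs12. With the striatum markers as a covariate the 4 counts were 0, 0, 0 and 0 in limma (0, 0, 1 and 3 at an unadjusted p of 0.05), and log2 ratios changed sign for Rgs2 (0.60), Rgs4 (0.15), Rgs10 (0.41), Rgs12 (-0.77), Rgs16 (0.76), Rgs17 (-0.19) and Rgs20 (0.11), but not for Rgs7, Rgs8 and Rgs14. Neither the sums of the striatum markers nor those of the cerebellum markers overlap between the diets. Without a variance trend 2 RGS genes were called, 1 with a change over 50%. Without moderation of the variance, 0 and 0 were called (4 at an unadjusted p of 0.05), Rgs4 had an adjusted p of 0.051, and 1 other RGS gene, Rgs9, was called. Without normal mice 2 and 3, chosen after seeing the data, 1 gene (Rgs4) had a change over 50% and Rgs12 was at -0.15. The cause of these shifts was not tested.

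With 1 mouse left out, 1 (without HFD mouse 4 or normal mouse 3) to 4 RGS genes were called, 0 (without HFD mouse 4) to 3 (without normal mouse 4) with a change over 50%, and 2 to 4 other RGS genes and 18 to 27 G protein genes. Log2 ratios that changed sign lay between -0.09 and 0.01 for Rgs2, -0.07 and 0.02 for Rgs7, -0.05 and 0.17 for Rgs12, -0.16 and 0.03 for Rgs14, and -0.18 and 0.03 for Rgs20. With the replicate number as a replicate block, although it does not pair the mice, 3 RGS genes were called (not Rgs17, limma adjusted p 0.0713, and 2 with a change over 50%), 2 other RGS genes and 20 G protein genes, and 3390 of all genes against 4626. Depth is unknown, and rounding to 0.1 limits the precision of low genes such as Rgs16.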
